A study of Mus musculus with 10 samples.

Results

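Genes used as markers of the inner retinal neurons of the mouse were followed through 10 RNA sequencing libraries of the posterior eye wall. The 10 genes were Grm6, Prkca, Calb1, Calb2, Gad1, Slc32a1, Slc17a6, Rbpms, Pou4f1 and Lhx1, chosen by name, and all 10 were among the 26360 genes listed in the deposited table. The libraries came from 5 right eyes and 5 left eyes of the same 5 wild-type C57BL/6J mice, numbered 61, 64, 65, 66 and 68, at postnatal day 34. The labels name the tissue RPE/choroid/sclera, that is, the retinal pigment epithelium, the vascular layer behind it and the fibrous outer coat. All 5 animals had worn a -20 D lens in a goggle over 1 eye for 10 days from postnatal day 24, and the fellow eye had no lens. The extraction text of the labels speaks of retinae, and the labels do not say which side carried the goggle, so a right minus left difference has no treatment direction.

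The inner retina carries signals from the photoreceptors to the optic nerve. Bipolar cells receive glutamate from rods and cones, horizontal and amacrine cells modify the signal sideways, largely by inhibition, and ganglion cells send it to the brain. ON bipolar cells sense photoreceptor glutamate through the receptor encoded by Grm6, and rod bipolar cells are commonly labelled by Prkca, a protein kinase C. Calb1 and Calb2 encode the calcium-binding proteins calbindin and calretinin, found in horizontal, amacrine and some ganglion cells. Gad1 makes the transmitter GABA, Slc32a1 loads GABA and glycine into vesicles, Lhx1 is a transcription factor of horizontal cells, and Slc17a6 (a vesicular glutamate transporter), Rbpms (an RNA-binding protein) and Pou4f1 (a transcription factor) mark ganglion cells. Prkca and Rbpms are also widely used outside the retina, Rbpms for example in smooth muscle.

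Listed values were reads scaled to library depth (CPM), and the steps between low values implied 66.9 to 94.3 M reads per library (M, mega), of which 30.6 to 43.6 M fell on listed genes. Of 36 low values of the 10 markers, all 36 were whole multiples of the value of 1 read within a tolerance of 0.05, so that reads are given beside the lowest levels. A level of 3 reads corresponded to 0.0318 to 0.0448 CPM, and this floor covers counting error only. All 11 pigment epithelium genes of a list were above 0 in every library. In each library 24340 to 25079 of the 26360 listed genes were above 0, so this count does not test the tissue label. The summed level of the 11 genes was 6363 to 8371 CPM in right eyes and 6186 to 6894 CPM in left eyes. Rgr, an opsin of this epithelium, averaged 2113 ± 355 CPM in right eyes and 1816 ± 82.9 CPM in left eyes (SD, n = 5 each). Best1, a chloride channel of the same cells chosen after its values were seen, was low, at 0.255 to 0.762 CPM over the 10 libraries. Nothing in the labels beyond the side separates the 10 libraries into batches.

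The right eye of animal 68, followed by the left eye of animal 65, stood apart for rod and cone genes. Rods are outside the labelled tissue, and all 18 rod genes of a comparison list were listed, none of them at 0 in any library. Their summed level was 311 to 2539 CPM in right eyes and 390 to 1270 CPM in left eyes, highest in the right eye of animal 68 and next in the left eye of animal 65. The summed horizontal, amacrine, ganglion cell and Müller glia lists did not have these libraries in that order, and such sums rest mostly on abundant genes. The summed bipolar list was highest in the right eye of animal 68 and next in the left eye of animal 66. The right eye of animal 68 was highest for 15 of 22 bipolar, 5 of 9 horizontal and 11 of 24 amacrine cell genes. It was highest for 13 of 23 ganglion cell and 0 of 11 Müller glia genes. Over genes averaging 1 CPM or more that share was 10.6%, and over those averaging 0.1 to 1 CPM 17.9%. The results below are therefore given with and without the library from the right eye of animal 68 where it carries them. In such bulk samples, fewer cells of a type and less RNA per cell cannot be told apart.

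The promoters of Grm6, a gene of ON bipolar cells, and Prkca, a label of rod bipolar cells, looked different. This pair was picked for display after the levels of the genes were seen to behave differently. A link between promoter sequence and level was not tested. Each sequence covers 250 bases before to 50 bases after a RefSeq gene start on chromosome 11 (GRCm38.p6), read 5′ to 3′ along the gene, with CG dinucleotides in capitals. The Grm6 stretch lies at chr11:50850435-50850734 on the plus strand and the Prkca stretch at chr11:108343839-108344138 on the minus strand.
Grm6: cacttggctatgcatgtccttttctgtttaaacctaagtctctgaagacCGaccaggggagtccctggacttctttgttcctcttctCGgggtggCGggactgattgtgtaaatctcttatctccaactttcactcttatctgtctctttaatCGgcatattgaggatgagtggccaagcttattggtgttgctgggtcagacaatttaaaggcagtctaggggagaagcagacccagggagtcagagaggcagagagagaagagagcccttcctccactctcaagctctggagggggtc
Prkca: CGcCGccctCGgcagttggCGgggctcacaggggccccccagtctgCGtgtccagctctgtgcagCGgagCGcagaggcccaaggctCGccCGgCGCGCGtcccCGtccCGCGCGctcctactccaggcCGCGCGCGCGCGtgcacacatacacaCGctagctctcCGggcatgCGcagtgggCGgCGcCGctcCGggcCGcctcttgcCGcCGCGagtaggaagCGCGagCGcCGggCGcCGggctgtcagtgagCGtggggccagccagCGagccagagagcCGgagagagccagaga
The Grm6 promoter held 4 CG dinucleotides and was 49.7% G and C, and 31.4% of 32841 mouse promoters in the same collection held fewer CG. The Prkca promoter held 42 and was 75.3% G and C, and 97% of promoters held fewer. Promoter sequences were matched for 7 of the 10 markers. Among the others Slc17a6 held 8 and 3 at its 2 listed starts, Slc32a1 17, Gad1 21, Lhx1 31 and Pou4f1 57, against a median of 7 over all promoters. The letters TAATCC, recognised by photoreceptor and bipolar factors of the OTX family, were searched on both strands and occurred in the Gad1 promoter and in none of the other 6 matched genes, against 7.06% of all promoters. TAATTA, a core motif of many homeodomain factors and its own reverse complement, occurred in 1 of the 2 Slc17a6 promoters, against 5.29% of all promoters. Of Calb1, Calb2 and Rbpms no promoter is shown.

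Per kilobase of exon, the markers fell into 2 abundant genes and 8 scarce ones. Prkca (chromosome 11, 107933387 to 108343928, minus strand, GRCm38) had the highest median level, 4.31 CPM per kb, with a range of 3.85 to 5.33 over the 10 libraries. Rbpms (chromosome 8, 33782643 to 33929863, minus strand) followed at 3.56 (2.78 to 3.82) CPM per kb, below the whole range of Prkca. The order of these 2 rests on the length used, since Rbpms averaged 3.43 CPM per kb of exon union (6556 bases over 15 transcripts) but 8.84 CPM per kb of its longest transcript. That value lay above the 4.69 CPM per kb of Prkca computed the same way. Calb2 (chromosome 8, 110137502 to 110168210, minus strand) came next at a median of 0.696 CPM per kb, with a range of 0.190 to 4.99 that reached above Rbpms in 1 library, the right eye of animal 68, and above Prkca in none.

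Gad1 (chromosome 2, 70553072 to 70602014, plus strand) was at a median of 0.142 CPM per kb and below Calb2 in 10 of 10 libraries, although their ranges overlapped. Its mean was 0.243 CPM per kb of exon union but 0.515 CPM per kb of the longest transcript. Grm6 (chromosome 11, 50850685 to 50866208, plus strand) at 0.0480 and Slc17a6 (chromosome 7, 51622006 to 51671119, plus strand) at 0.0469 CPM per kb were not separated, each being higher in 5 libraries. Slc32a1 (chromosome 2, 158610767 to 158615748, plus strand) at 0.0305, Calb1 (chromosome 4, 15881264 to 15908064, plus strand) at 0.0277 and Pou4f1 (chromosome 14, 104461676 to 104467999, minus strand) at 0.0262 CPM per kb overlapped throughout. Lhx1 (chromosome 11, 84518284 to 84525535, minus strand) was lowest at 0.00130 CPM per kb. All 10 genes are annotated as protein-coding. Antisense or other genes overlap exons of Grm6, Prkca, Gad1 and Slc32a1 on the opposite strand, and as the libraries were stranded but the use of strand in counting is not stated, reads of such pairs might not be told apart.

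**Figure D1:**
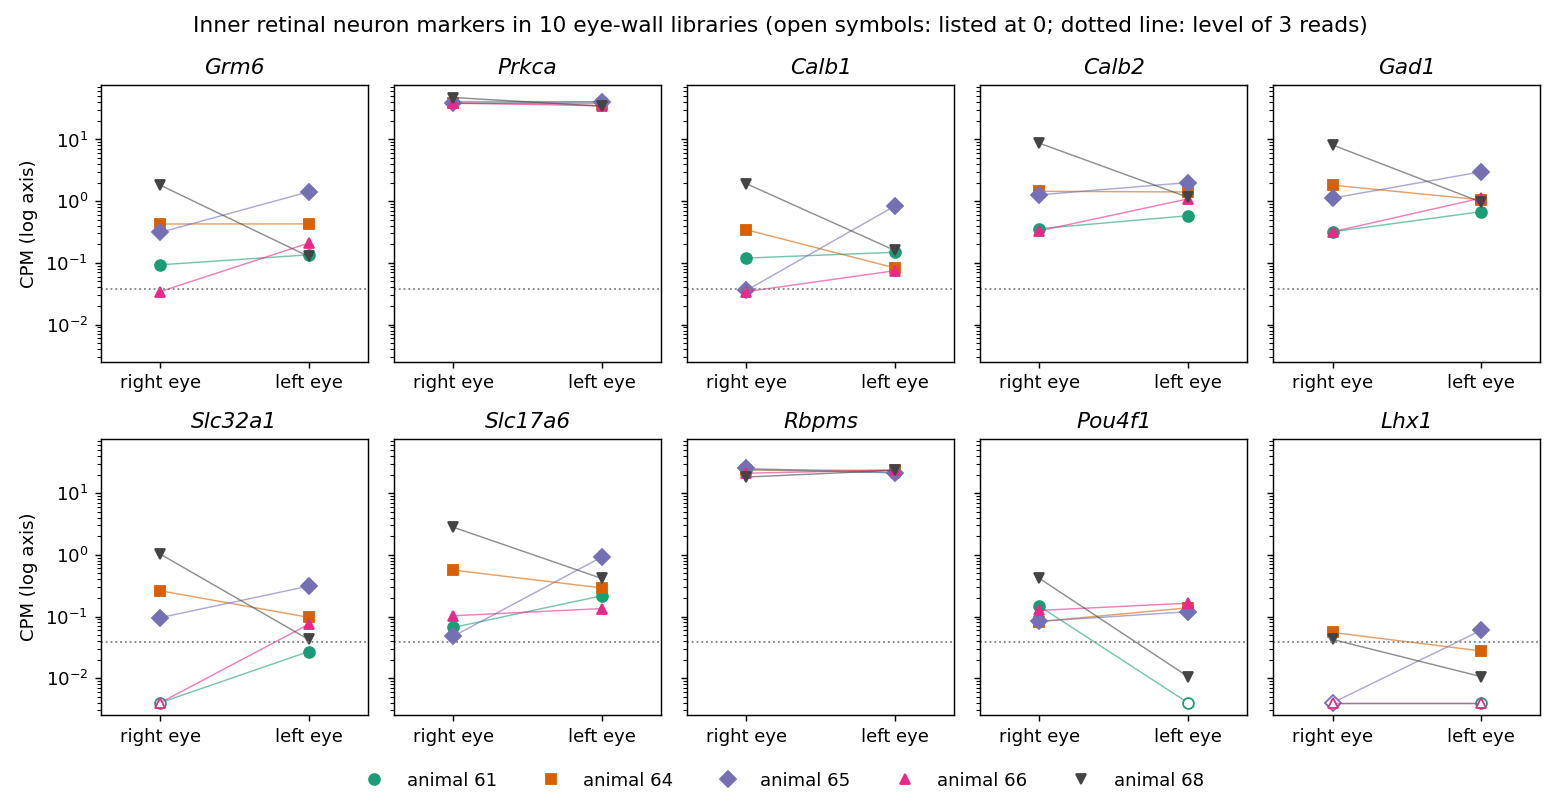
Level of each marker in CPM (log axis) in right and left eyes, with a line joining the eyes of 1 animal. The dotted line marks the median level of 3 reads and open symbols mark values listed at 0. Prkca and Rbpms lie within narrow bands, while the right eye of animal 68 is highest for 8 of the 10 markers.

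Only Prkca, Rbpms, Calb2 and Gad1 reached the mean of 1 CPM that was required for the test across genes. Calb2 and Gad1 would have reached it in the other libraries too, at 1.07 and 1.15 CPM on average, if the right eye of animal 68 were left out. In a limma fit blocked by animal, 0 of these 4 markers and 0% of the 15414 genes tested had an adjusted p below 0.05. At an unadjusted p under 0.05 there were 0 of the 4 markers, beside 430 genes (2.79%). No marker of the 10 had right and left eyes that did not overlap, beside 0.214% of tested genes, and none differed in the same direction in 5 of 5 animals, beside 4.44% of tested genes. The median right minus left difference of the 4 tested markers was 0.07 on the log2 scale, against -0.01 over all tested genes, and 3 of the 4 had an estimate above 0, beside 46% of tested genes. Without animal 68, or without its right eye alone (chosen after seeing the data), the median was -0.27, with Prkca and Rbpms above 0 and Calb2 and Gad1 below 0. Fellow eyes share an animal, so the p-values rest on the spread of the right minus left difference over 5 animals. In limma this spread is moderated across genes. Exact sign-flip permutation over 5 animals cannot give a p below 0.063.

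Among the bipolar markers, Grm6 was variable and Prkca was steady. Grm6 was at 0.0932, 0.427, 0.311, 0.0343 and 1.82 CPM in the right eyes of animals 61, 64, 65, 66 and 68, against 0.135, 0.429, 1.42, 0.209 and 0.127 CPM in their left eyes. The lowest of these values stands for 3 reads and the highest for 172 reads, and the right eye of animal 68 and the left eye of animal 65 were the only libraries above 1 CPM. The eyes overlapped, the right eye was higher in 1 of 5 animals, and the mean log2 difference was 0.0003 (exact sign-flip permutation p = 1, two-sided, 5 animals). Without animal 68 it was -0.63, lower in the right eye of each of the 4 other animals, with an exact p of 0.13, the smallest that 4 animals can give. In animal 64 that difference was only -0.0038, with 31 reads in each eye.

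Prkca was at 41.2, 38.4, 38.5, 39.1 and 47.9 CPM in the right eyes of animals 61, 64, 65, 66 and 68, against 41.0, 38.2, 40.5, 35.2 and 34.6 CPM in their left eyes. The right eye of animal 68 was the highest library here too, but only 1.38-fold above the lowest, whereas for Grm6 the ratio was 53.3-fold. Prkca averaged 41.0 ± 4.01 CPM in right eyes and 37.9 ± 2.94 CPM in left eyes (SD, n = 5 each), a log2 difference of 0.11 with a 95% interval of -0.08 to 0.30 (limma adjusted p = 0.9998), higher in the right eye of 4 of 5 animals. Without animal 68 the difference was 0.02.

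The horizontal and amacrine cell markers that are calcium-binding proteins varied like Grm6. Calb1 was at 0.120, 0.345, 0.0359, 0.0343 and 1.92 CPM in the right eyes of animals 61, 64, 65, 66 and 68, against 0.149, 0.0830, 0.836, 0.0747 and 0.159 CPM in their left eyes. These levels rest on 3 to 181 reads, and the eyes overlapped, with the same 2 libraries on top as for Grm6. Calb2 was at 0.359, 1.45, 1.27, 0.331 and 8.70 CPM in the right eyes, against 0.581, 1.41, 2.01, 1.09 and 1.16 CPM in the left eyes, in the same order of animals. Its level in the right eye of animal 68 was 7.17-fold the median of the 10 libraries, and the eyes overlapped. The log2 difference of Calb2 was 0.09 with a 95% interval of -1.13 to 1.31 (limma adjusted p = 0.9998), higher in the right eye of 2 of 5 animals. It was -0.56 without animal 68, with a 95% interval of -1.12 to 0.003 (limma adjusted p = 0.942). For Calb1 the mean log2 difference was 0.20 (exact sign-flip permutation p = 0.75, 5 animals), and -0.36 without animal 68.

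The genes of inhibitory transmission behaved in the same way. Gad1, which encodes a glutamate decarboxylase, was at 0.320, 1.82, 1.13, 0.320 and 8.15 CPM in the right eyes of animals 61, 64, 65, 66 and 68, against 0.676, 1.05, 2.99, 1.12 and 0.966 CPM in their left eyes. The right eye was higher in animals 64 and 68 and lower in the other 3. The log2 difference of Gad1 was 0.04 with a 95% interval of -1.34 to 1.43 (limma adjusted p = 0.9998), an interval that leaves differences of more than 2-fold in either direction unresolved. Without animal 68 the difference was -0.65, with a 95% interval of -1.49 to 0.19 (limma adjusted p = 0.942).
Slc32a1, the vesicular transporter, was at 0, 0.262, 0.0958, 0 and 1.03 CPM in the right eyes, against 0.0270, 0.0969, 0.311, 0.0747 and 0.0425 CPM in the left eyes, in the same order of animals. It was listed at 0 in 2 libraries and was under 3 reads in 3. The mean log2 difference of Slc32a1 was 0.30 (exact sign-flip permutation p = 0.75, 5 animals), and -0.18 without animal 68. Lhx1, the horizontal cell factor, had at most 5 reads in any library (0.0597 CPM in the left eye of animal 65), was listed at 0 in 5 libraries, 3 right and 2 left, and was under the 3-read floor in 7, so that no difference between eyes could be measured at this depth.

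The 3 ganglion cell markers differed among themselves. Slc17a6 was at 0.0666, 0.565, 0.0479, 0.103 and 2.80 CPM in the right eyes of animals 61, 64, 65, 66 and 68, against 0.216, 0.291, 0.920, 0.135 and 0.414 CPM in their left eyes. It thus shared its 2 highest libraries with Grm6, Calb1, Calb2, Gad1 and Slc32a1, and its mean log2 difference of 0.02 (exact sign-flip permutation p = 0.9375, 5 animals) was -0.54 without animal 68. Rbpms was at 23.9, 23.9, 25.1, 21.0 and 18.2 CPM in the right eyes, against 21.5, 23.3, 21.2, 23.7 and 23.4 CPM in the left eyes, in the same order of animals. The library from the right eye of animal 68 was here the lowest and not the highest.
Rbpms averaged 22.4 ± 2.79 CPM in right eyes and 22.6 ± 1.17 CPM in left eyes (SD, n = 5 each), a log2 difference of -0.02 with a 95% interval of -0.24 to 0.19 (limma adjusted p = 0.9998), higher in the right eye of 3 of 5 animals. Without animal 68 it was 0.06. The 14 smooth muscle and pericyte genes were all listed and none was at 0 in any library. Their summed level was 1014 to 1255 CPM in right eyes and 1088 to 1194 CPM in left eyes, and it too was lowest in the right eye of animal 68. The summed lists of peripheral neurons and of Schwann cells and myelin were also lowest there, so this was not particular to smooth muscle. The part of smooth muscle and pericytes in the Rbpms level was not tested. Pou4f1 was at 0.146, 0.0827, 0.0838, 0.126 and 0.414 CPM in the right eyes of animals 61, 64, 65, 66 and 68, against 0, 0.138, 0.119, 0.164 and 0.0106 CPM in their left eyes. Apart from the right eye of animal 68, with 39 reads, every library held 0 to 11 reads of Pou4f1, and the left eye of animal 65 did not stand out. The mean log2 difference of Pou4f1 was 0.32 (exact sign-flip permutation p = 0.5, 5 animals) and 0.04 without animal 68.

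**Figure D2:**
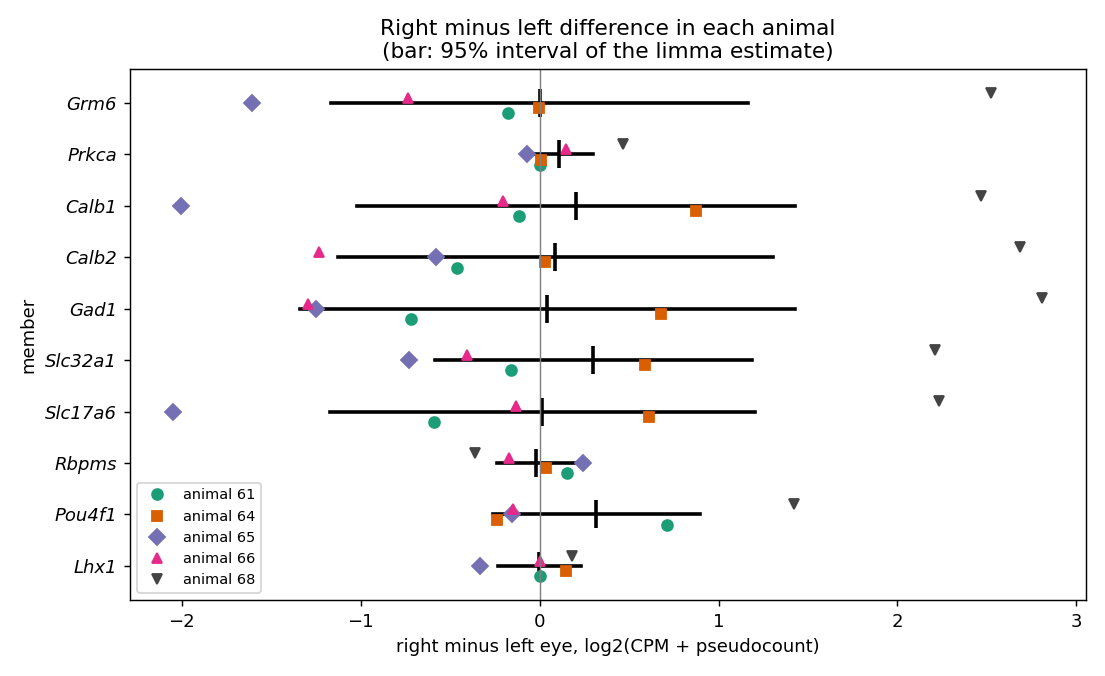
Right minus left difference of each marker on the log2(CPM + 0.230) scale, with 1 symbol per animal, a vertical tick at the limma estimate and a bar for its 95% interval. The 6 markers under 1 CPM take their interval from the fit without a filter on low values. Animal 68 lies above 2 for Grm6, Calb1, Calb2, Gad1, Slc32a1 and Slc17a6, and animal 65 lies below 0 for the same genes.

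The scarce markers other than Lhx1 varied more than most tested genes, both between fellow eyes and between animals. Lhx1 had an SD of 0.14 on the log2 scale over the 10 libraries, below the median of 0.16. For Pou4f1 72.6% of tested genes had a smaller SD of the animal means. The SD of the right minus left difference over the 5 animals was 1.74 for Gad1, 1.64 for Calb1, 1.58 for Slc17a6, 1.54 for Grm6 and 1.52 for Calb2 on the log2 scale. The median over all tested genes was 0.20. Tested genes averaged 1 CPM or more, whereas Calb1, Slc17a6 and Grm6 lay below that, where counting error is larger. These SDs were not compared with those of genes of like level. Without animal 68 (a setting chosen after seeing the data) these SDs were 0.92 for Gad1, 1.20 for Calb1, 1.12 for Slc17a6, 0.72 for Grm6 and 0.52 for Calb2, against a median of 0.19. The SD of the animal means was 0.90 for Gad1 and 0.93 for Calb2, against a median of 0.11. Of the sum of squares over the 10 libraries, leaving out the mean difference between sides, 48.5% lay within animals for Gad1 and 39.8% for Calb2, against a median of 45.1% over all tested genes. Without animal 68 these shares were 27.9% and 12.4%, against 45.6%. For Gad1 99.6% and for Calb2 99.5% of tested genes had a smaller SD over the 10 libraries. Prkca and Rbpms, with SDs of 0.13 each over the 10 libraries, lay below the median of 0.16, and 36.8% and 39.2% of tested genes had a smaller SD. Their SDs of the right minus left difference, 0.21 and 0.24, lay above the median of 0.20, with 55% and 63% of tested genes below. Without animal 68 these were 0.09 and 0.18, against a median of 0.19.

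With the mean log2 level of the rod list as a covariate, the standard error of the right minus left difference was 0.13 for Gad1, against 0.59 without it, and 0.19 for Calb2, against 0.52, while the differences stayed at 0.04 and 0.08 (limma adjusted p = 0.985 and 0.982). Rod genes thus moved with these markers, and the part of photoreceptor or other retinal tissue in their levels was not tested.

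The shared order of libraries was counted as the genes that were highest in the right eye of animal 68 and had their second highest value in the left eye of animal 65. This count was chosen after the values were seen. It held for 6 of the 10 markers (60%), beside 4.06% of all tested genes and 6.95% of 5668 genes with a mean of 0.1 to 1 CPM, and 8 of the 10 markers were highest in the right eye of animal 68, beside 10.6% and 17.9%. Among rod genes it held for 16 of 18 and among cone genes for 7 of 10. It held for 0 of 11 genes of Müller glia and astrocytes, 0 of 11 of the pigment epithelium, 0 of 14 of smooth muscle and pericytes, 0 of 12 listed genes of peripheral neurons, 0 of 11 of Schwann cells and myelin and 0 of 13 of skeletal muscle.

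Further genes of the inner retinal cell types were examined from lists written by hand. No gene of these lists passed the adjusted threshold in limma in either direction, and at an unadjusted p under 0.05 there was 1 of the 11 tested bipolar genes and 0 of the 5 horizontal, 11 amacrine and 14 ganglion cell genes. Of the 22 bipolar genes, 13 shared the order of libraries. Rgs9bp, which anchors a regulator of G-protein signalling, reached 33.7 CPM in the right eye of animal 68 and 16.7 CPM in the left eye of animal 65, and lay between 3.06 and 10.3 CPM elsewhere. Gnb3, a G-protein subunit of cones and ON bipolar cells, reached 9.09 and 4.92 CPM in the same libraries and lay between 0.626 and 3.11 CPM elsewhere. These 2 genes were chosen after their values were seen, and the part of photoreceptors in their levels was not tested. The most abundant genes of the list did not share the order. Trpm1, the channel that the Grm6 cascade acts on, is also a gene of melanocytes. It averaged 222 ± 45.9 CPM in right eyes and 249.9 ± 20.2 CPM in left eyes, with its highest level in the left eye of animal 66. Gnao1, the G protein that Grm6 acts through and a gene of many neurons, averaged 48.7 ± 5.07 CPM in right eyes and 49.3 ± 3.26 CPM in left eyes (SD, n = 5 each).

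Of 24 amacrine cell genes 5 shared the order. Among them was Gad2, the second glutamate decarboxylase, at 2.29 CPM in the right eye of animal 68 and 1.05 CPM in the left eye of animal 65. In the other 8 libraries Gad2, which was chosen after its values were seen, lay between 0.126 and 0.498 CPM. The most abundant genes of that list, Penk, a precursor of enkephalin, and Abat, which breaks down GABA, were steady at 77.2 ± 6.69 and 81.1 ± 8.01 CPM in right eyes and 83.4 ± 11.4 and 77.9 ± 3.17 CPM in left eyes (SD, n = 5 each). Of 9 listed horizontal cell genes 3 shared the order, and the most abundant, Ndrg1 and Slc4a3, did not.
Of 23 ganglion cell genes 5 shared it. Pvalb, a calcium-binding protein of some ganglion cells and of fast muscle, was the most abundant of them at 36.9 ± 14.3 CPM in right eyes and 80.2 ± 59.6 CPM in left eyes (SD, n = 5 each), and its highest level, 161 CPM, was in the left eye of animal 68. The skeletal muscle list, 13 of 13 genes listed and none at 0, was also highest in that library, with a summed level of 3837 to 7915 CPM in right eyes and 2137 to 9888 CPM in left eyes, and the part of muscle in the Pvalb level was not tested.

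**Figure D3:**
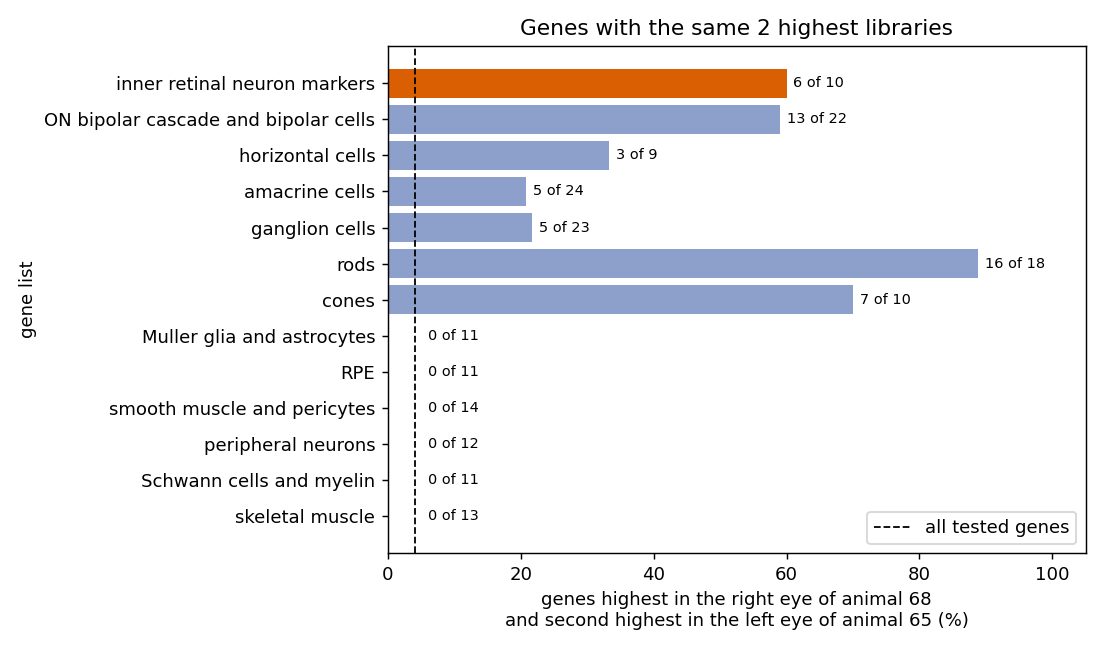
Share of the listed genes of each list, in percent, whose highest level was in the right eye of animal 68 and whose second highest was in the left eye of animal 65, with the counts beside the bars. The dashed line marks the 4.06% of all tested genes. The markers (6 of 10), bipolar genes (13 of 22), rods (16 of 18) and cones (7 of 10) have the longest bars, and 6 lists have none.

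The patterns most alike to the tested markers were ranked by Pearson r of log2 levels over the 10 libraries, which share 5 animals, among 15414 tested genes. They are given as a description, since the highest of so many values is high by selection, and Spearman's rank correlation for the same 12 pairs was 0.794 to 0.988. For Gad1 they were Pdc, the rod protein phosducin (r = 0.994), and the synaptic genes Syp (r = 0.993) and Snap25 (r = 0.99). Without the 2 libraries farthest from the median, the right eye of animal 68 and the left eye of animal 65, these r were 0.984, 0.986 and 0.962.
For Calb2 they were Lbhd1 (r = 0.981), Diras2 (r = 0.979) and Gad1 (r = 0.976), and without the right eyes of animals 68 and 66 the r were 0.941, 0.952 and 0.93. For Prkca they were Phactr1 (r = 0.971), Ppp1r7 (r = 0.935) and Wdr54 (r = 0.932), falling to 0.921, 0.811 and 0.818 without both eyes of animal 68. For Rbpms they were Vill (r = 0.94), Snx2 (r = 0.927) and Ccdc138 (r = 0.923), and 0.851, 0.798 and 0.796 without the right eyes of animals 68 and 66. Pdc was the only one of these genes on the rod list.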

How the data were processed

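The authors deposited 1 table of normalized values for 26360 genes that fit CPM with 1e-04 added, which was subtracted. STAR and Partek, and the builds GRCm38 and mm10, are named in the submitters' processing notes. No version, gene annotation or strand setting is stated there. Per the labels' protocols, libraries were made from total RNA after ribosomal RNA depletion, and the protocol for extraction speaks of retinae although the tissue is labelled otherwise. All 10 columns matched a sample title. Values worth 0.5 to 20 reads came out whole, within 0.05, for 88.9% to 89.8% of genes per library. The share of all reads that fell on listed genes was 42.7% to 47.1%. Exon lengths came from GENCODE M21, whose starts equalled 99.4% of the deposited starts among 25722 genes matched by name, and printed ends are the deposited stop minus 1. Promoters came from RefSeq (GRCm38.p6).

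Right and left eyes were compared on log2(CPM + 0.230) with limma 3.58.1 in R 4.3.3 (intensity trend, animal and side as terms, 4 residual degrees of freedom) over genes averaging 1 CPM or more, with Benjamini-Hochberg adjustment. Log2 differences on this scale understate the change of low genes. Markers below 1 CPM were tested by exact two-sided sign flips over animals. The block rests on the animal number in the titles, which both eyes of a mouse share. The deviations of fellow eyes from their group means correlated at -0.19 to 0.27 over genes. No library was a copy of another, since chi-square over degrees of freedom was 11.6 or more in all 45 pairs. The steps were tested on simulated data. Figures used matplotlib 3.10.9. The markers, lists and tests were chosen with earlier results of these data known. Named genes were the 10 markers, the 2 most abundant genes of each list and the 3 genes most alike in pattern to each tested marker. Others are marked as chosen after their values were seen. Some genes that the rule names are not reported here. Alternatives covered the block, pseudocount, filter, scaling, weights, a rod covariate, length and each animal left out.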

Additional observations from a re-analysis of the deposited data

Results flagged for a closer look

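A single library lay far from the other 4 of its group in 17 of 44 groups of 5 values examined. The groups were 10 markers and 12 list sums, each in right and left eyes. The cutoff would be passed by about 1 in 20 groups of normally distributed values. It was applied to untransformed CPM, many of them low, so that rate does not give the number expected by chance here. In right eyes the library of animal 68 lay far above the others for Grm6 (1.82 CPM), Calb1 (1.92 CPM), Calb2 (8.70 CPM), Gad1 (8.15 CPM), Slc32a1 (1.03 CPM), Slc17a6 (2.80 CPM) and Pou4f1 (0.414 CPM), and likewise for the summed rod (2539 CPM) and cone (62.9 CPM) lists. In left eyes the library of animal 65 lay far above the others for Grm6 (1.42 CPM), Calb1 (0.836 CPM), Gad1 (2.99 CPM), Slc32a1 (0.311 CPM) and the summed rod list (1270 CPM). The markers share their libraries, so these are not separate events.

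The other such values were the summed horizontal cell list in the right eye of animal 66 (124 CPM, low), the summed Müller glia and astrocyte list in the left eye of animal 68 (1325 CPM, low) and the summed Schwann cell and myelin list in the left eye of animal 66 (256 CPM, high).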

How the results depend on the processing

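Under 16 alternative fits, of which 1 (without the right eye of animal 68) was chosen after seeing the data, 0 genes and 0 markers were called in each. The fit without that eye repeats by construction the estimates of the fit without animal 68. Without the replicate block the median difference of the tested markers was 0.07, as with it, and no call changed. Leaving out each animal moved this median between -0.27 (without animal 68) and 0.24. With array weights it was -0.01. Prkca and Pou4f1 kept the sign of their right minus left difference in every alternative run for them, and the other 8 markers did not. With a pseudocount of 0.1 CPM the difference was -0.060 for Grm6, -0.015 for Gad1 and -0.13 for Slc17a6. With array weights it was -0.037 for Calb2, -0.073 for Gad1 and 0.017 for Rbpms. After scaling to the sum of listed genes it was -0.0052 for Grm6, and after quantile normalization 0.0045 for Lhx1. With each animal left out in turn it ran from -0.63 to 0.40 for Grm6, -0.36 to 0.76 for Calb1, -0.56 to 0.42 for Calb2, -0.65 to 0.38 for Gad1, -0.18 to 0.56 for Slc32a1, -0.54 to 0.53 for Slc17a6, -0.086 to 0.064 for Rbpms and -0.047 to 0.081 for Lhx1. The cause of these shifts was not tested. With the length of the longest transcript the level of Rbpms was 8.84 CPM per kb, against 3.43, and that of Gad1 0.515, against 0.243. Array weights and the rod covariate were not run for the 6 markers below 1 CPM, and a filter of 5 CPM left only Prkca and Rbpms. Depth limits Lhx1, Pou4f1 and Slc32a1 most, which had 0 to 39 reads in all but 1 library value.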

Other observations

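Genes of Müller glia and astrocytes did not follow 1 order of libraries. Gfap, an intermediate filament of astrocytes and reactive Müller cells, was at 0.266, 1.63, 6.74, 2.16 and 20.3 CPM in the right eyes of animals 61, 64, 65, 66 and 68, against 12.7, 18.4, 1.49, 36.9 and 5.58 CPM in their left eyes. It was highest in the left eye of animal 66, as were Slc1a3, a glutamate transporter (35.2 CPM), Kcnj10, a potassium channel (3.63 CPM), and Sox2, a transcription factor (0.942 CPM), each with its second highest level in the right eye of animal 68. Aqp4, a water channel (23.8 CPM), and Abca8a (67.9 CPM) were instead highest in the left eye of animal 65, and Dkk3 was second highest there (443 CPM). The neurofilament gene Nefl, carried by ganglion cell axons and by other nerves, reached 22.1 CPM in the right eye of animal 68 and 0.799 to 4.83 CPM in the other 9 libraries. These genes were chosen after their values were seen.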
